A study of Mus musculus with 13 samples.

Results

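The glucose transporter Slc2a1 (GLUT1), the hexokinases Hk1 and Hk2, the phosphofructokinases Pfkl and Pfkp, and Aldoa, Pgk1, Pkm, Ldha and Pdk1 were followed in mouse lung. They were taken by symbol from the count table, and all 10 were present among its 32544 gene symbols. Glucose enters cells through transporters of the GLUT family and is split to pyruvate by the enzymes of glycolysis. In cells short of oxygen, the hypoxia-inducible factors (HIFs) bind a short DNA motif near many of these genes and raise their transcription, so that glucose is turned to lactate rather than burned in mitochondria. Pdk1, the kinase that switches off pyruvate dehydrogenase, belongs to the same program. The opposite treatment, excess oxygen, was given here, and the comparison asks whether these HIF targets moved together.

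The data are Quant-seq libraries, which read the 3′ ends of polyadenylated transcripts, from perfused whole lung of wild-type C57BL/6J male mice bought at 7 weeks of age. Lung was collected after 5 days at 21% oxygen (normoxia, n = 7) or 80% oxygen (hyperoxia, n = 6), and the labels give no other treatment or genotype. Total counts ran from 1607111 to 4540288 per library. Nothing in the labels names the animal behind each library, so that the tests measure the spread between these libraries. In whole lung, fewer cells of a type and less RNA per cell cannot be told apart.

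Hyperoxia replicate 1 stood apart from all other libraries, with a mean correlation of log2 CPM (counts scaled to a common library total) with them of 0.779, where the other 12 libraries had between 0.886 and 0.919. It also differed in transcript length. Relative to the normoxic mean, the 2971 genes with the longest transcripts lay 0.85 above the 2971 with the shortest in their median log2 CPM, against −0.34 to 0.24 in the other hyperoxic and −0.22 to 0.37 in the normoxic libraries. Fits without this library are given for some results, and most other values, among them the summed marker levels, include it. Libraries named B to M (5 normoxic, 3 hyperoxic) and O to S (2 normoxic, 3 hyperoxic) follow each other in the labels, and values within each of these letter sets are given for the members whose call or sign differed between them.

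On GRCm38 (GENCODE M21), Slc2a1 spans chr4:119108711-119137983, Hk1 chr10:62268855-62379908, Hk2 chr6:82725025-82774454, Pgk1 chrX:106187100-106203699, Ldha chr7:46841475-46855627 and Pdk1 chr2:71873224-71903858. HIFs are known to act through a short motif, which was found in promoter windows of all 10 genes. The promoters of 5 of them are shown as examples of a gene that rose (Slc2a1, Hk2 and Pgk1), was not called (Ldha) or fell (Pdk1). Each window runs from 250 bases before to 50 bases after a RefSeq transcript start on GRCm38.p6, is written 5′ to 3′ on the strand of the gene, and has in capitals every ACGTG or GCGTG on either strand (read as CACGT or CACGC where the motif lies on the opposite strand).
Slc2a1, chr4:119108495-119108794, plus strand: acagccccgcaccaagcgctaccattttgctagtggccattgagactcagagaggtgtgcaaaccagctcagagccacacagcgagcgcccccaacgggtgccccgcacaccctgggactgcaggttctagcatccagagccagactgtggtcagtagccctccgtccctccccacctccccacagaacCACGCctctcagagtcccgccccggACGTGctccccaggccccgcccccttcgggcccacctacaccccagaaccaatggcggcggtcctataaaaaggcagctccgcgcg
Hk2, chr6:82774405-82774704, minus strand: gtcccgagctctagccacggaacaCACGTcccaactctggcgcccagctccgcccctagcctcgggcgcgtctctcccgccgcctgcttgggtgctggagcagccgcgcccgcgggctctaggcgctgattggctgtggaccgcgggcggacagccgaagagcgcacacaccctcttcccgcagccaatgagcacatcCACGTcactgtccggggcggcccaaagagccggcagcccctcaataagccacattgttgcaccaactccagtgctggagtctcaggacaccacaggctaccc
Pgk1, chrX:106186850-106187149, plus strand: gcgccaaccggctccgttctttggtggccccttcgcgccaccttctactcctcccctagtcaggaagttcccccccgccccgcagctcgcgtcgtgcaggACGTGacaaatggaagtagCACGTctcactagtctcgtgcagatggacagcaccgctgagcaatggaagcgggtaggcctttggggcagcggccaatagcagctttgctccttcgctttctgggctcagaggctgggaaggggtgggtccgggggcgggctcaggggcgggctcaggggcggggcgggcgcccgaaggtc
Ldha, chr7:46845554-46845853, plus strand: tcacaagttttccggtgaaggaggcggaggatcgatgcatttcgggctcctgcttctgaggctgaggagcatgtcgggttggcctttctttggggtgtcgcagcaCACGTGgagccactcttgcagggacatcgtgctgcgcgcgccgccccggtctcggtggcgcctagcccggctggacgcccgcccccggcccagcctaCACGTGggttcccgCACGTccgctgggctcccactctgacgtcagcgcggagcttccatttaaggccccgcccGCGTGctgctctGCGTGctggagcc
Pdk1, chr2:71872974-71873273, plus strand: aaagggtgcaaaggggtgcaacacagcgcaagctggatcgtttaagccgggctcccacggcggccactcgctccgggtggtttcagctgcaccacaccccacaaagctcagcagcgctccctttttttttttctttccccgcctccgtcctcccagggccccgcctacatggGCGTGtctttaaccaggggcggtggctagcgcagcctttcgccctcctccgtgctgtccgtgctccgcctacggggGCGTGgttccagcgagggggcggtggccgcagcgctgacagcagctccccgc

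The Slc2a1 window held 2 motifs, at −61 and −36 from the start, where a position is that of the motif's leftmost base. Hk2 also had 2, both in reverse orientation, and Pgk1 had 2 in opposite orientations, at −150 and −131. In Ldha, 7 were found, which included a pair of CACGTG palindromes that count once in each orientation. The end of this Ldha window was not found in an annotated transcript of the gene, unlike the ends of the other member windows. A second Ldha window held 2 motifs, both GCGTG. The Pdk1 window held 2, both of them GCGTG. All 10 genes had at least 1 motif in at least 1 of their windows, but so did 66.4% of the 9374 tested genes with a window in this table. The share was 71.1% among the genes called higher in hyperoxia, 56.4% among those called lower and 67% among the rest, so that the motif is common in promoters of expressed genes. Ldha, which had the most motifs in a window, did not pass the test described below. Nor did Pfkp, Pkm, Aldoa and Pfkl, with at most 4, 2, 1 and 1 motifs in a window. Hk1 rose and had 5 motifs in 1 of its 2 windows and 0 in the other. Pdk1 fell and Slc2a1, Hk2 and Pgk1 rose with 2 motifs each in the windows shown. Whether motif number bears on the changes was not tested. These letter matches are a description and not evidence of binding.

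**Figure D1:**
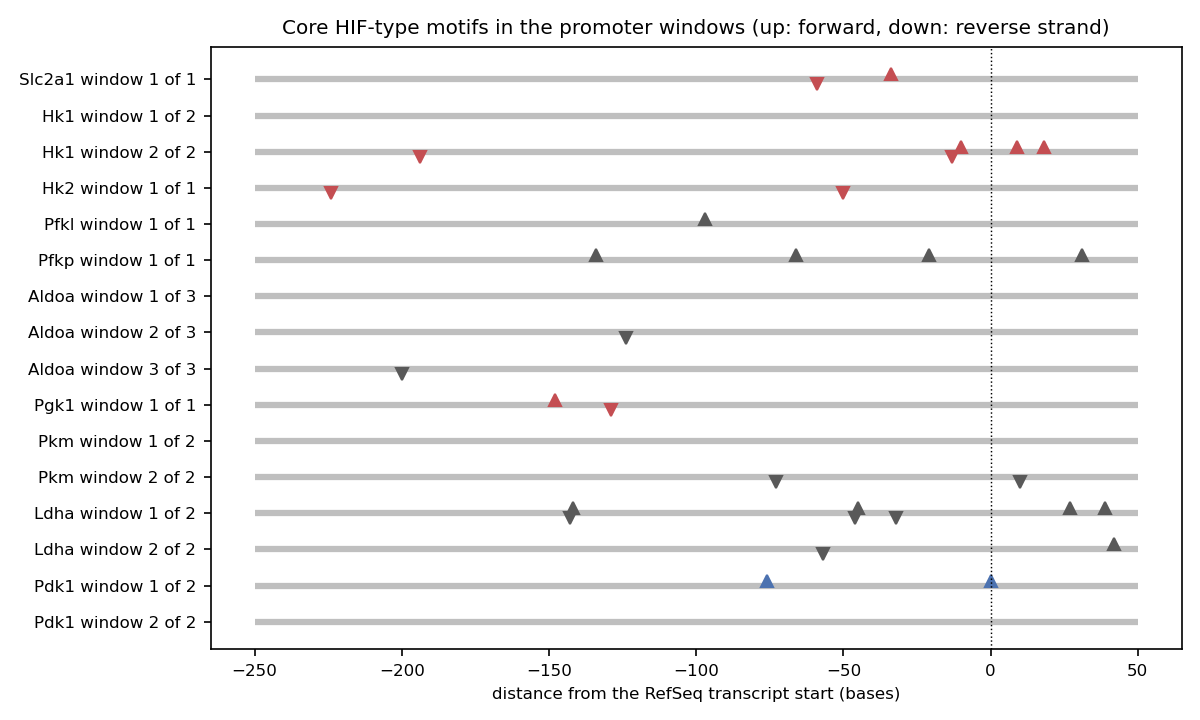
Positions of ACGTG or GCGTG in every promoter window of the 10 genes, with distance from the RefSeq transcript start in bases on the x axis and 1 window a line. Triangles up are on the strand of the gene and triangles down on the opposite strand, red for genes higher in hyperoxia, blue for lower and grey for neither, and motifs stand in windows of all 3 kinds.

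With all libraries in the fit, the members were called in both directions. In the test across all genes (edgeR quasi-likelihood test, Benjamini-Hochberg adjusted p under 0.05), Slc2a1, Hk1, Hk2 and Pgk1 were higher in hyperoxia, Pdk1 was lower, and Pfkl, Pfkp, Aldoa, Pkm and Ldha did not pass. Thus 4 of the 10 were called higher against 11.8% of the 12496 genes tested, and 1 of 10 lower against 10.8%. These were 1473 and 1346 genes. In a limma fit of the deposited log CPM they were 1097 (8.78%) and 1729 (13.8%), the median of all genes shifted to −0.157 and Slc2a1, Hk1, Hk2 and Pdk1 were called in the same direction but Pgk1 was not. The median log2 fold change was 0.39 over the members and −0.03 over all genes tested. Of the members, 8 had a log2 fold change above 0, as did 47.8% of all genes. The 5 called genes were called as well without hyperoxia replicate 1, where 15.2% of the genes tested were higher and 13.3% lower. The tally differed between the letter sets, a difference that was not tested. Within O to S, 6 of 10 members were called higher (Slc2a1, Hk1, Hk2, Aldoa, Pgk1 and Pkm) and 0 lower, against 11.0% and 10.3% of all genes, and 9 members lay above 0 with a median log2 fold change of 0.88. Within B to M, which holds hyperoxia replicate 1, 2 members were called higher (Hk1 and Hk2) and 0 lower, against 5.34% and 3.47% of all genes, and 6 lay above 0 with a median of 0.40.

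**Figure D2:**
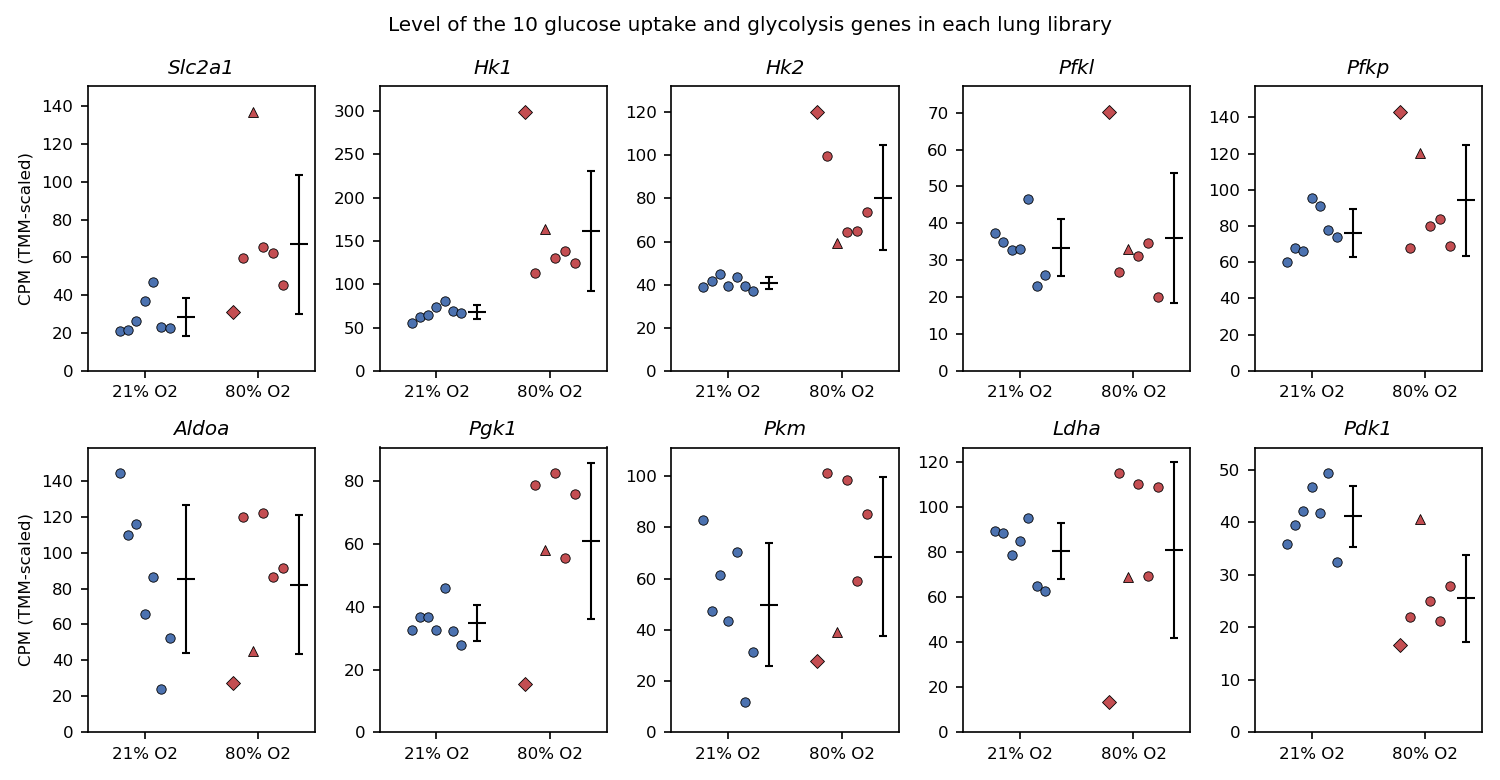
CPM (TMM-scaled, y axis) of each gene in the 7 normoxic (blue) and 6 hyperoxic (red) libraries, with mean and SD beside the points. The diamond is hyperoxia replicate 1 and the triangle hyperoxia replicate 3; Hk1 and Hk2 show no overlap between the groups, and the diamond lies lowest in Pgk1 and Ldha but highest in Hk1 and Hk2.

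Slc2a1 mRNA was higher in hyperoxia, whereas Slc2a3, another glucose transporter, was not called (log2 fold change −0.25, edgeR adjusted p = 0.74). Slc2a1, which carries glucose across the plasma membrane of most cell types, had a lowest, median and highest level of 21.3, 23.1 and 47.2 CPM in normoxia and of 31.1, 61.1 and 137 CPM in hyperoxia. In 4 of the 6 hyperoxic libraries its level was above every normoxic library, and the groups overlapped through hyperoxia replicate 1 and, narrowly, replicate 6 at 45.3 CPM. The 7 normoxic libraries averaged 28.5 ± 9.87 CPM (SD) and the 6 hyperoxic ones 66.9 ± 36.7 CPM (SD), a 2.37-fold difference in the fit (log2 fold change 1.24 ± 0.30 SE, edgeR adjusted p = 0.00668). The highest value came from hyperoxia replicate 3 alone, at 137 CPM against 65.7 CPM in the next library. Within the letter sets the log2 fold change was 1.36 for B to M (edgeR adjusted p = 0.0747) and 1.32 for O to S (edgeR adjusted p = 0.00543).

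Hexokinases phosphorylate glucose and so hold it in the cell. Hk1, the widely expressed isozyme, ranged from 55.3 to 80.3 CPM around a median of 67.2 in normoxia and from 113 to 299 CPM around a median of 134 in hyperoxia, so that every hyperoxic library lay above every normoxic library. Its log2 fold change was 1.25 (SE 0.21, edgeR adjusted p = 4.3e-04), and 1.00 without hyperoxia replicate 1 (edgeR adjusted p = 2.8e-05). Hk2, the isozyme best known as inducible by insulin and by HIF-1, was steady in normoxia, at 36.9, 39.4 and 44.8 CPM for the lowest, median and highest library, and stood at 59.1, 69.2 and 120.1 CPM in hyperoxia. The groups again did not overlap (log2 fold change 0.98 ± 0.17 SE, edgeR adjusted p = 6.6e-04). Among the members, 2 of 10 separated completely, Hk1 and Hk2, whereas 5.60% of the genes tested separated with hyperoxia higher and 5.23% with hyperoxia lower. Both stayed called in all 13 fits that left out 1 library and within both letter sets. Hk1os lies antisense to Hk1 and Gm17034 to Hk2, and whether reads were counted by strand is not given in the sources used here.

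The phosphofructokinases catalyse the committed step of glycolysis, and neither member passed. Pfkl, the liver-type subunit, had 22.9, 33.0 and 46.6 CPM as its lowest, median and highest level in normoxia and 20.1, 32.1 and 70.2 CPM in hyperoxia, with the highest value in hyperoxia replicate 1. Its log2 fold change was 0.11 (SE 0.25, edgeR adjusted p = 0.808) and −0.16 without that library. Pfkp, the platelet-type subunit, had a median of 73.8 CPM in normoxia and 82.2 CPM in hyperoxia. Its log2 fold change was 0.30 (SE 0.19, edgeR adjusted p = 0.281), and 0.17 without hyperoxia replicate 1, its highest library. In both genes the ranges of the groups overlapped widely.

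Of the members that act after phosphofructokinase in glycolysis, Pgk1 alone passed. Pgk1, the phosphoglycerate kinase that makes the first ATP of the pathway's payoff phase, was at 27.7, 32.6 and 45.9 CPM for the lowest, median and highest normoxic library and at 15.5, 66.8 and 82.4 CPM in hyperoxia. From 55.6 CPM upwards, 5 hyperoxic libraries lay above all normoxic libraries, and hyperoxia replicate 1 lay below all of them. The log2 fold change of 0.82 (SE 0.27, edgeR adjusted p = 0.0389) became 1.03 without that library (edgeR adjusted p = 7.2e-05). The call was lost in 9 of the 13 fits that left out 1 library, with adjusted p-values between 0.0513 and 0.0791. Within B to M the log2 fold change of Pgk1 was 0.50 (edgeR adjusted p = 0.442), and within O to S 1.24 (edgeR adjusted p = 0.00573). In the last 500 bases of the Pgk1 transcript, 11.1% of the 31-mers also occur in annotated copies such as Pgk1-rs7, to which some of its reads could have gone.

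Aldoa, the main aldolase outside liver and brain, was at 24.2, 86.4 and 144 CPM for the lowest, median and highest library in normoxia and at 27.3, 88.9 and 122 CPM in hyperoxia, with a log2 fold change of −0.05 (SE 0.38, edgeR adjusted p = 0.941). Of its terminal 31-mers, 23.2% are shared with copies such as Aldoart1. Pkm, which encodes the pyruvate kinases PKM1 and PKM2 that share their 3′ end and cannot be told apart here, had a median of 47.5 CPM in normoxia and 72.1 CPM in hyperoxia (log2 fold change 0.47 ± 0.37 SE, edgeR adjusted p = 0.399). Both genes gave other values in each letter set, although the difference between sets was not tested. Within O to S, Aldoa was 1.37 higher on the log2 scale (edgeR adjusted p = 0.0155) and Pkm 1.90 higher (edgeR adjusted p = 0.00977), whereas within B to M Aldoa stood at −0.67 (edgeR adjusted p = 0.343) and Pkm at −0.08 (edgeR adjusted p = 0.909). The normoxic libraries of O to S were replicates 6 and 7, which had the lowest normoxic Pkm levels, 12.0 and 31.2 CPM, and long-minus-short values of 0.37 and 0.21, the highest in normoxia. Their part in the result was not tested.

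Ldha, the lactate dehydrogenase subunit that favours lactate and a classic HIF-1 target, did not differ detectably. It had 62.7, 84.8 and 95.0 CPM as the lowest, median and highest level in normoxia and 13.4, 89.0 and 115 CPM in hyperoxia. Hyperoxia replicates 2, 4 and 6 lay above every normoxic library and replicate 1 far below them, so that the means were nearly equal (80.6 ± 12.5 against 81.0 ± 39.1 CPM, SD). The log2 fold change was 0.02 (SE 0.32, edgeR adjusted p = 0.981), and 0.25 without replicate 1 (edgeR adjusted p = 0.274), whereas it was −0.04 with scaling by library size alone and −0.32 in the limma fit of the deposited log CPM. Ldha stood at −0.37 within B to M (edgeR adjusted p = 0.643) and at 0.58 within O to S (edgeR adjusted p = 0.0784).

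Pdk1 moved against the other called members. The kinase keeps pyruvate out of the mitochondrial oxidation route and is induced by HIF-1 in low oxygen. Its lowest, median and highest levels were 32.4, 41.7 and 49.3 CPM in normoxia and 16.6, 23.5 and 40.6 CPM in hyperoxia, where 5 of 6 libraries lay below every normoxic library and hyperoxia replicate 3 reached 40.6 CPM. It fell by 0.68 on the log2 scale (standard error 0.19, edgeR adjusted p = 0.0186), and stayed called in all 13 fits that left out 1 library. Within the letter sets the log2 fold change was −0.58 and −0.74, with neither past the threshold (edgeR adjusted p = 0.237 and 0.0533).

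Hyperoxia replicate 1, the library with the most long transcripts relative to short ones, was the highest hyperoxic library for Hk1, Hk2, Pfkl and Pfkp, whose longest coding transcripts have 3730 to 5513 bases, and the lowest for Aldoa, Pgk1, Pkm and Ldha, at 1549 to 2432 bases, as well as for Slc2a1 and Pdk1. Pdk1, at 5185 bases, does not follow that order, and the part of transcript length in the result was not tested beyond the following fit. With a trend of length and GC content removed from every library, an alternative added once the data had been seen, the same 5 genes were called (with 15.6% of all genes higher and 10.2% lower), with log2 fold changes of 1.40 for Slc2a1, 1.48 for Hk1, 1.09 for Hk2, 0.84 for Pgk1 and −0.63 for Pdk1. Aldoa, Pkm and Ldha stood at 0.10, 0.61 and 0.03 in that fit and did not pass.

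**Figure D3:**
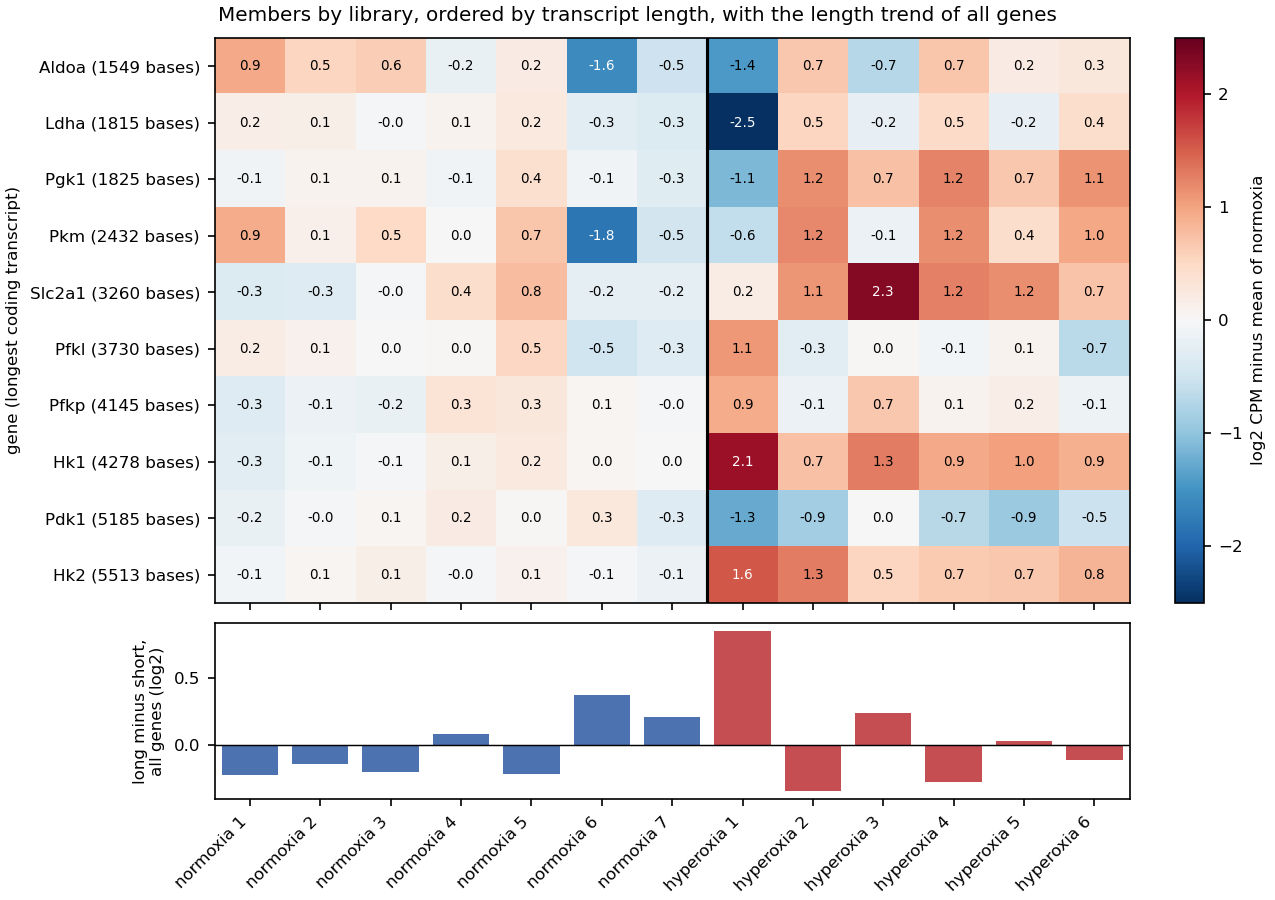
Upper panel, log2 CPM of each member minus its normoxic mean in all 13 libraries, with genes ordered by the length of the longest coding transcript. Lower panel, the median of the 2971 genes with the longest transcripts minus that of the 2971 with the shortest in the same library; hyperoxia replicate 1 has the largest value of the 13 libraries, 0.85, and the lowest values for Ldha, Pgk1 and Aldoa among the hyperoxic libraries.

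A ratio of 2 genes within a library does not use the scaling between libraries, and 5 such ratios of genes of the same step were compared. Ldha rose relative to Ldhb, the subunit that favours pyruvate. The mean log2 ratio was 0.21 ± 0.17 (SD, n = 7) in normoxia and 1.16 ± 0.47 (SD, n = 6) in hyperoxia, with no overlap between the groups (difference 0.95, standard error 0.20; exact permutation test, two-sided, p = 0.000583, the smallest that 1716 splits can give; adjusted over the 5 ratios, p = 0.00146). Ldhb by itself averaged 70.7 ± 17.1 CPM (SD) under normoxia, against 40.7 ± 25.0 CPM (SD) under hyperoxia, and did not pass (log2 fold change −0.78, edgeR adjusted p = 0.183). Without hyperoxia replicate 1, in which Ldhb was at 2.68 CPM, the difference was 0.79.

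Slc2a1 likewise rose relative to Slc2a3, the transporter GLUT3 of neurons and leukocytes. The log2 ratio was 1.14 ± 0.57 (SD, n = 7) in normoxia and 2.86 ± 1.09 (SD, n = 6) in hyperoxia, a difference of 1.71 (standard error 0.49; exact permutation test p = 0.000583, adjusted p = 0.00146) that was 1.30 without hyperoxia replicate 1, where Slc2a3 had a count of 0. The ratios of Hk2 to Hk1 and of Pfkp to Pfkl differed by −0.25 (standard error 0.20) and 0.23 (standard error 0.20) and did not pass (exact permutation test, adjusted p = 0.26 and 0.264). Pdk1 to Pdk4, a kinase of the same family induced by fasting, differed by −0.62 (standard error 0.31; exact permutation test, adjusted p = 0.119).

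**Figure D4:**
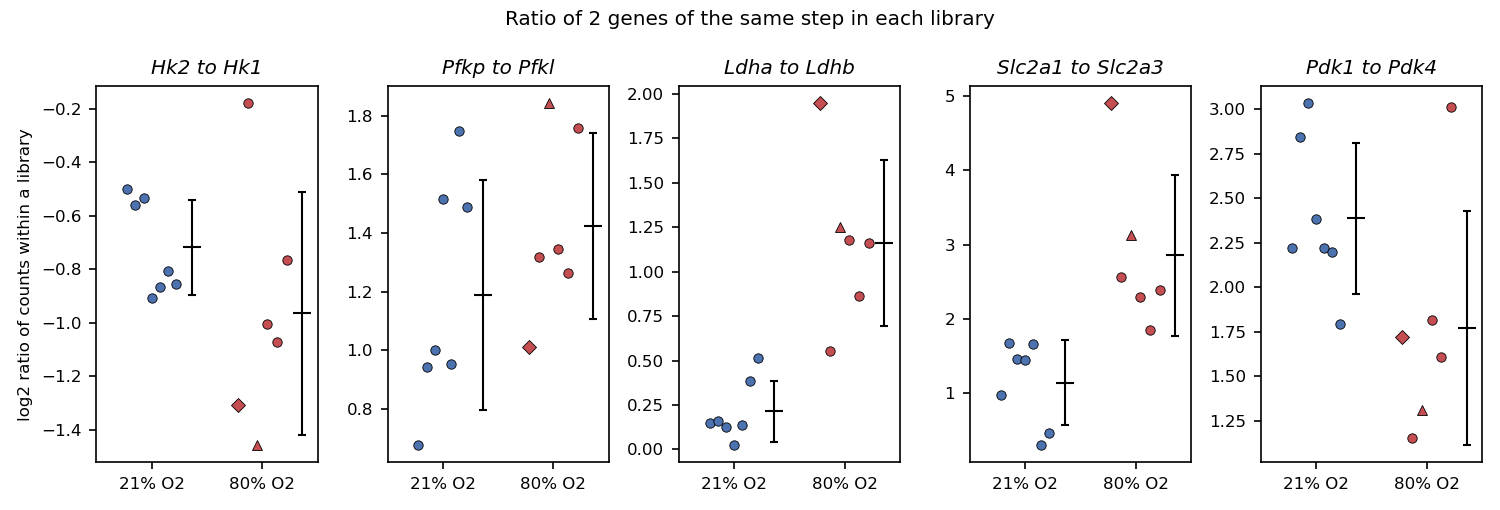
Log2 ratio of the counts of 2 genes within each library (2 counts added to each), for 7 normoxic (blue) and 6 hyperoxic (red) libraries, with mean and SD; the diamond is hyperoxia replicate 1. Ldha to Ldhb and Slc2a1 to Slc2a3 separate the groups, the other 3 ratios overlap.

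Of 20 other glycolysis genes 10 were tested, with 1 higher and 1 lower, shares near the 11.8% and 10.8% of all genes, and 4 of 10 above 0 with a median log2 fold change of −0.19. Gapdh, the dehydrogenase often used as a reference gene, averaged 440.4 ± 69.4 CPM (SD) under normoxia and rose to 1187 ± 381 CPM (SD), with no overlap (log2 fold change 1.43 ± 0.19 SE, edgeR adjusted p = 9.4e-05). Bpgm, which makes 2,3-bisphosphoglycerate in red cells, fell from 57.1 ± 15.5 to 34.1 ± 6.36 CPM (log2 fold change −0.74, edgeR adjusted p = 0.0112). The summed level of 6 erythroid markers ran from 195 to 3408 CPM in normoxia and from 170.0 to 2867 CPM in hyperoxia. All 4 tested erythroid markers had a log2 fold change under 0, with a median of −1.31, and Hbb-bt was called lower (−2.39, edgeR adjusted p = 0.0188). Their part in the result for Bpgm was not tested. Gpi1 (0.52), Pgam1 (0.50), Eno1 (0.72), Tpi1 (−0.34) and Eno3 (−1.53) gave log2 fold changes that did not pass.

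Beside the pathway, none of the 4 tested genes that set fructose 2,6-bisphosphate (Pfkfb2, Pfkfb3, Pfkfb4 and Tigar) passed, nor did any of 7 genes of the pentose phosphate pathway, whose medians were −0.13 and 0.29. Of all genes tested, 11.8% were called higher and 10.8% lower, so that a lack of calls in lists this short says little. Among 13 tested genes of the fate of pyruvate and lactate, 3 rose and none fell, beside the same 11.8% and 10.8% of all genes, with a median of 0.17. These were Slc16a1, the lactate and pyruvate carrier MCT1 (log2 fold change 0.79, edgeR adjusted p = 0.0106), Pdk3, a kinase of the same family as Pdk1 (0.65, edgeR adjusted p = 0.0169), and Dld, a subunit of pyruvate dehydrogenase (0.79, edgeR adjusted p = 0.0496). Pdk3 and Pdk1 were thus called in opposite directions. Of 4 tested genes of gluconeogenesis 1 was called higher and none lower, beside the same shares of all genes, and this was Pck2 (0.60, edgeR adjusted p = 0.0315).

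Of 25 HIF targets beyond the members that the table holds 19 were tested, with 2 higher, 3 lower and a median log2 fold change of −0.16, and these counts too lie near the shares of all genes (11.8% higher, 10.8% lower). Mxi1, a repressor of the MYC network, fell from 47.6 ± 6.62 to 26.9 ± 3.59 CPM without overlap (log2 fold change −0.83, edgeR adjusted p = 7.2e-04). Bnip3l, a receptor for mitophagy that is also abundant in maturing red cells, and P4ha1, a collagen prolyl hydroxylase, fell by 1.09 and 0.62 on the log2 scale (edgeR adjusted p = 0.00882 and 0.00771). Stc2 and Higd1a rose by 2.08 and 0.74 (edgeR adjusted p = 1.4e-04 and 0.0316), and Stc2 is also known as a target of the ATF4 stress response. Vegfa averaged 387 ± 129 CPM (SD) under normoxia, against 389 ± 141 CPM (SD) under hyperoxia. Among the HIF subunits, Hif1a mRNA was higher (log2 fold change 1.73, edgeR adjusted p = 2.2e-06), Epas1, which encodes HIF2α, lower (−1.09, edgeR adjusted p = 0.0134) and Arnt not called (−0.12, edgeR adjusted p = 0.675). HIF proteins are controlled mainly by degradation, which mRNA counts do not measure.

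**Figure D5:**
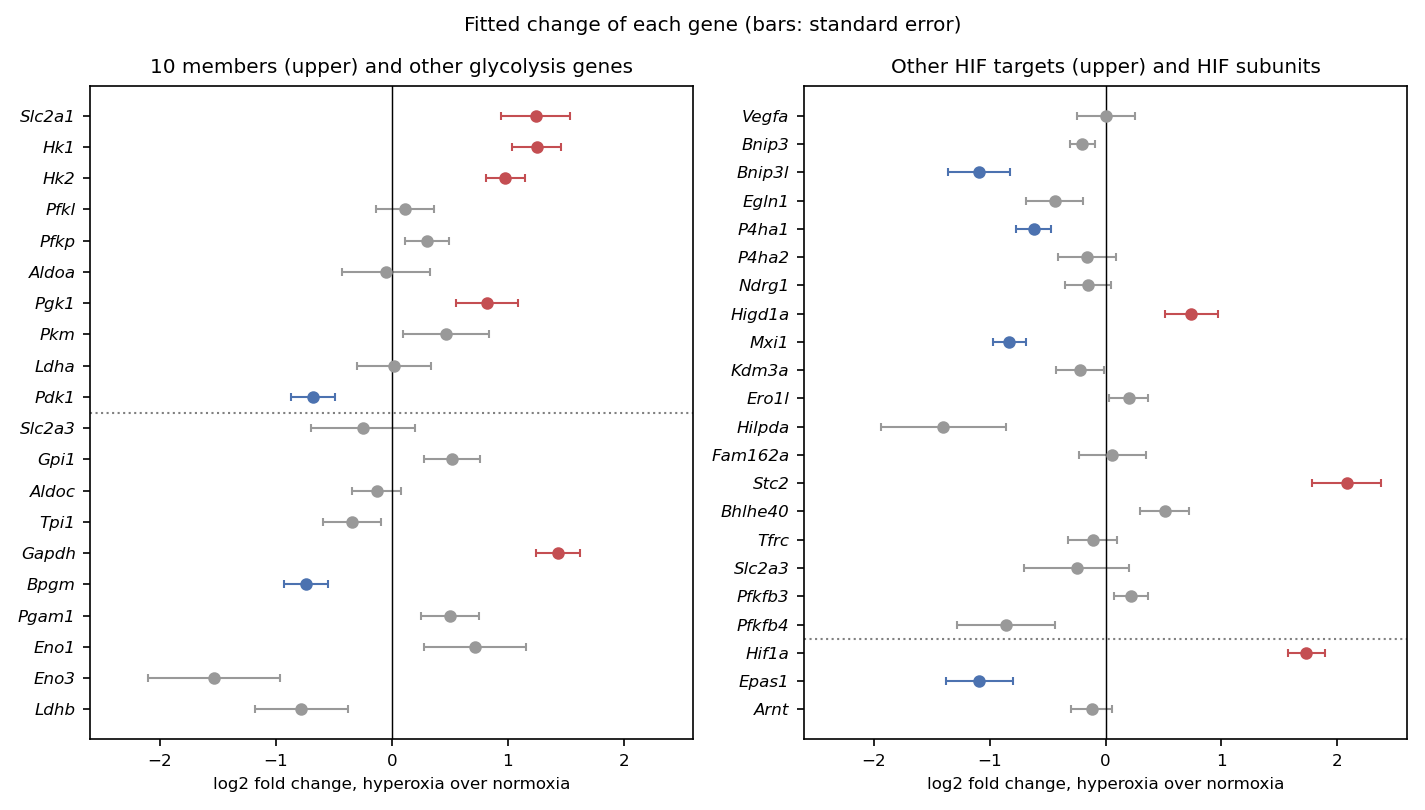
Fitted log2 fold change, hyperoxia over normoxia (x axis), with standard error, for the 10 members and the tested other glycolysis genes on the left and for other HIF targets and HIF subunits on the right. Red is higher, blue lower and grey not past an adjusted p of 0.05; both panels hold all 3 colours.

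The genes whose pattern over the 13 libraries was most like that of each called member were found by the root mean square difference of centred log2 CPM. For Slc2a1 this was Pabpc4 (0.249), for Hk1 Vps26b (0.147), for Hk2 Emd (0.169), for Pgk1 Fdx1l (0.211) and for Pdk1 Hbp1 (0.184). None of these is a glycolysis gene, and the likeness is a description.

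Markers of some of the cells a lung can hold moved with the treatment as well, and their counts are to be read beside the 11.8% of all genes called higher and the 10.8% called lower. Of 6 markers each, 5 were lower for alveolar type 2 cells, 5 for B cells, 4 for cardiac muscle and 3 for ciliated and club cells, as were 2 of 3 tested markers of T and NK cells, with none higher in these lists. Alveolar type 2 markers summed to between 12382 and 23028 CPM in normoxia and between 3181 and 6846 CPM in hyperoxia. Smooth muscle markers had 3 higher and none lower, fibroblast markers 1 higher and 1 lower, and alveolar and recruited macrophage markers each 1 higher and 2 lower. Endothelial markers had 2 lower, alveolar type 1 and erythroid markers 1 lower each, and neutrophil and proliferation markers had 0 genes called. Sftpc, Pecam1 and Ager, 1 marker each of alveolar type 2 cells, endothelium and alveolar type 1 cells, were detected in every library, at no less than 32.7, 392 and 271 CPM. Sftpc ran from 5066 to 13578 CPM in normoxia and from 32.7 to 2915 CPM in hyperoxia. The part of these shifts in the changes of the members was not tested.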

How the data were processed

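The 13 Quant-seq libraries of mouse lung were grouped by the labelled oxygen level. The authors pseudoaligned reads with kallisto in BioJupies (mm10, per the submitters' processing notes) and deposited whole-number counts per gene symbol without a filter, and log10 values that equal log10 of CPM plus 1. All columns were mapped to libraries.

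Counts were tested with edgeR 4.0.16 (R 4.3.3): filterByExpr, TMM scaling, quasi-likelihood F-test and Benjamini-Hochberg adjustment over 12496 genes, called at adjusted p under 0.05. CPM in the text are TMM-scaled. Log2 CPM and ratios used a prior count of 2, and ratios an exact two-sided permutation test. A level of 3 counts equalled 0.656 to 1.838 CPM, and such limits cover counting error only. The fit was tried on simulated counts with known changes. These had less spread than the data and no outlying library, so that the trial does not measure the error in these data. No 2 replicates were alike within sampling noise.

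Alternatives were DESeq2 1.42.0, limma-voom and limma 3.58.1 on the log10 values deposited by the authors, turned to log2, other scaling and filters, a replicate block, letter sets, each library left out and, chosen after the data were seen, removal of transcript length and GC content. Lengths and overlaps came from GENCODE M21 (GRCm38), and promoters from RefSeq (GRCm38.p6).

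The members, lists and tests were chosen with earlier results of these data known. Named genes were all members, the genes of the ratios, at most 3 called genes in each direction from each further list, the HIF subunits and the nearest gene to each called member. Other genes without a call (among them Vegfa, Gpi1 and Tpi1) and the cell markers Sftpc, Pecam1, Ager and Hbb-bt were named after their values were seen.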

Additional observations from a re-analysis of the deposited data

Results flagged for a closer look

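In 4 of 30 groups of values examined, the highest library lay farther from the next than Dixon's 95% critical value of 0.625 for 6 libraries allows. Chance gives about 1.5 where values are normally distributed. Member levels were examined as CPM and not as log2 CPM, and which libraries stand out depends on that scale. Ldha in hyperoxia replicate 1, at a log2 CPM of 3.81 against 6.12 in the next library, was not flagged. In hyperoxia, Hk1 was at 299 CPM in replicate 1 against 164 CPM in the next library (gap over range 0.726). Pfkl was at 70.2 CPM in the same library against 34.7 CPM (0.709). Slc2a1 stood at 137 CPM in hyperoxia replicate 3 against 65.7 CPM (0.673), and the log2 ratio of Pdk1 to Pdk4 at 3.01 in hyperoxia replicate 6 against 1.81 (0.643). The cause of these gaps was not tested.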

How the results depend on the processing

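Slc2a1, Hk1, Hk2 and Pdk1 kept their direction and call in each fit to all libraries and in all 13 fits without 1 library. Pgk1 kept its direction but lost its call with limma-voom (0.73), log CPM (0.56), library size alone (0.76), at least 10 counts in every library (0.77), the letter set as a term (0.78) and the replicate block (0.64), and in 9 of 13 fits without 1 library (0.72 to 1.03 over all 13). Without 1 library, members called higher numbered 3 to 4 and lower 1, beside 10.1% to 15.2% and 8.45% to 13.3% of all genes.

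Of the 5 uncalled members, Pfkp kept its sign throughout, at 0.60 in B to M alone and 0.02 in O to S alone, and the other 4 changed it. Aldoa was 0.02 with limma-voom, 0.09 with the letter set term, 1.37 in O to S alone, 0.10 with length and GC content removed, and −0.21 to 0.14 without 1 library. Ldha was −0.17 with limma-voom, −0.32 with log CPM, −0.04 with library size alone, −0.03 with at least 10 counts, −0.01 with the letter set term, −0.37 in B to M alone, and −0.09 to 0.25 without 1 library. Pfkl was −0.04 with log CPM and −0.16 to 0.27 without 1 library, and Pkm −0.08 in B to M alone. The cause was not tested.

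B to M alone (8 libraries) called 679 genes higher and 441 lower, and 2 members higher and 0 lower. O to S alone (5 libraries) called 1438 genes higher and 1356 lower, and 6 members higher and 0 lower. The cause was not tested. Without 1 library the ratio of Hk2 to Hk1 ran from −0.40 to −0.15 and passed without hyperoxia replicate 2 (−0.40), and that of Pdk1 to Pdk4 ran from −0.86 to −0.49 and passed without hyperoxia replicate 6 (−0.86).

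Replicate numbers are shared by the groups, and correlations of same-numbered deviations ran from −0.325 to 0.272. These were not compared with correlations of differently numbered libraries, so that they cannot decide whether the numbers pair the libraries. The replicate block gave 703 genes higher and 588 lower, Pfkl at −0.01 and Ldha at −0.21. By sign flips over pairs under the block, Ldha to Ldhb was 1.00 and Slc2a1 to Slc2a3 1.60, both with an exact adjusted p of 0.0781, and 64 sign flips allow no p under 0.0312. Counts of 10 or fewer in a library limit low genes such as Slc2a3 and Pdk4.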
